A study of Homo sapiens with 6 samples.

Results

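The genes described here were 10 genes around the RNA-binding protein LIN28B and the let-7 microRNAs, measured by total RNA sequencing in a human neuroblastoma cell line. They were *LIN28A* and *LIN28B*, *HMGA1* and *HMGA2*, *IGF2BP1*, *IGF2BP2* and *IGF2BP3*, the let-7 host gene *MIRLET7BHG*, and the microRNA processing enzymes *DICER1* and *DROSHA*. Members were taken by gene symbol alone, and all 10 were found among the 60651 genes of the count tables. The 6 libraries formed 2 groups, 3 labelled EtOH, for ethanol, and 3 labelled Tet, for tetracycline, which the labels say was given for 5 days.

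The cell model differed between the labels. The titles named IMR575, and a tag called knockdown marked the groups as control and induction. The protocol text instead described SK-N-SH cells with a tetracycline-inducible *MYCN* expression system, kept as single clones under G418 and blasticidin in both groups. The study worked with an SK-N-AS line that expresses *MYCN* on induction and with the *MYCN*-amplified line IMR-5/75 carrying an inducible *MYCN* shRNA. *MYCN* itself, the gene both kinds of system act on, stood at 157.6, 256.0 and 155.7 CPM (counts brought to one library total, with TMM scaling) in the libraries labelled EtOH and 196.3, 199.9 and 145.2 CPM in those labelled Tet. The groups overlapped, with a log2 fold change of -0.07 ± 0.23 (SE), which did not pass the edgeR quasi-likelihood test (adjusted p = 0.956) and turned to 0.21 without EtOH replicate 2 and 0.07 without Tet replicate 3. *MYCN* RNA therefore did not check the labels. The study checked its IMR-5/75 knockdown by western blot of MYCN protein, which these RNA values do not measure. Every difference given below compares the label Tet with the label EtOH.

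let-7 microRNAs are short RNAs that lower the output of messenger RNAs carrying matching sites in their 3′ untranslated regions. DROSHA cuts the primary transcript in the nucleus and DICER1 cuts the precursor in the cytoplasm, while LIN28 proteins bind let-7 precursors and hold back their maturation. LIN28B is made in many neuroblastomas, the chromatin proteins HMGA1 and HMGA2 and the IGF2BP family of messenger RNA-binding proteins are most active in embryonic and fetal tissues, and several of them are classical let-7 targets.

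The let-7 family was read from RefSeq (GRCh38.p14), and 9 mature sequences from 12 precursor loci carried the same seed. 4 of them are shown because let-7a and let-7b come from precursors inside *MIRLET7BHG* and because the precursor genes of let-7f and miR-98 had enough counts to be tested. Capitals mark the seed, bases 2 to 8 from the 5′ end.
hsa-let-7a-5p: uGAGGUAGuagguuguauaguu
hsa-let-7b-5p: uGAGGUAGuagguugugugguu
hsa-let-7f-5p: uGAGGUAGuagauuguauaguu
hsa-miR-98-5p: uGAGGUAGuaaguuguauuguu

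Matches to this seed were searched in 19061 3′ untranslated regions of GENCODE 44 on GRCh38, on the transcript strand. The 7-base match CTACCTC was found in 9.7% of them and the 8-base match CTACCTCA, which contains it, in 3.74%. *LIN28B* held 4 matches, of which 2 had 8 bases, and 0.159% of regions of like length held as many. *HMGA2* held 4, with 1 of 8 bases (0.0726% of regions of like length), and *IGF2BP1* held 4, with 3 of 8 bases (0.421%). *IGF2BP2*, *IGF2BP3* and *LIN28A* held 1 match of 8 bases each, and 12.9%, 12.1% and 16.0% of regions of like length held at least 1 match of 7 bases. *HMGA1* held 1 match of 7 bases (8.62%). *DICER1* and *DROSHA* held 0 matches in the regions searched. All 8-base matches found in these genes are listed, since they are the longest seed matches searched, with 20 bases before each and the match in capitals.
*LIN28A* at chr1:26427343-26427370, plus strand: ggagtgcacagcctattgaaCTACCTCA
*LIN28B* at chr6:105078807-105078834, plus strand: cctttacccggttgcaaagtCTACCTCA
*LIN28B* at chr6:105081416-105081443, plus strand: actctgtttacagcaaaaggCTACCTCA
*HMGA2* at chr12:65963293-65963320, plus strand: ggggcgccaacgttcgatttCTACCTCA
*IGF2BP1* at chr17:49051056-49051083, plus strand: aatgctgtgtgcgaagtaaaCTACCTCA
*IGF2BP1* at chr17:49053693-49053720, plus strand: ggaaccagcagtgctagtaaCTACCTCA
*IGF2BP1* at chr17:49054347-49054374, plus strand: tacgagtataaatggattaaCTACCTCA
*IGF2BP2* at chr3:185644220-185644247, minus strand: agaaaaacacacagaagaagCTACCTCA
*IGF2BP3* at chr7:23311795-23311822, minus strand: aaacgtgcatttttactcaaCTACCTCA

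A match is a description of these letters and does not show that let-7 acts there. The first *LIN28B* match began 44 bases after the stop codon and the *HMGA2* match shown began 21 bases after it, whereas the first *IGF2BP1* match began 1632 bases after it. The E-box CACGTG, which reads the same on both strands and which MYC proteins can bind, was found in 7.26% of 35116 RefSeq promoter windows, from 250 bases before to 50 after a start. Of 14 windows belonging to 7 of the 10 genes, 2 held it, 1 of the 2 windows of *LIN28B* and the window of *IGF2BP3*.

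The libraries held 27933378 to 40498065 counts, at which 3 counts are worth 0.0741 to 0.107 CPM. This limit covers counting error only. On the first principal component of all genes (44.7% of variance), EtOH replicate 2 scored 84.2 and Tet replicate 2 scored 47.3, while the other 4 libraries scored between -55 and -1.8. The second component (25.7% of variance) separated the labels, with the EtOH libraries at -34.7, -39.1 and -38.9 and the Tet libraries at 26.4, 38.1 and 48.1. Mitochondrial genes took 4.12% of counts in EtOH replicate 2 and at least 5.86% in each of the others. Of 7 noradrenergic neuroblastoma markers, *TH* and *DBH*, which encode enzymes of noradrenaline synthesis, stood at 0 to 0.0251 and 0 to 0.452 CPM, and the other 5 were tested. Of these 5, 0 were called by edgeR. Over all tested genes, 5.83% were higher at an unadjusted p under 0.05, and 9.2% had all Tet libraries above all EtOH libraries. Among the 5, 0 were lower at that p, and 3 were higher with all Tet libraries above all EtOH libraries. They were *ISL1* (40.84 to 65.49 CPM in the EtOH and 79.69 to 144.1 CPM in the Tet libraries), *GATA3* (228.4 to 262.3 and 299.0 to 333.7 CPM) and *PHOX2A* (4.58 to 5.35 and 7.26 to 23.31 CPM), with adjusted p-values of 0.142, 0.401 and 0.262 by edgeR. The 7 markers summed to 424 to 469 CPM in the EtOH and 534 to 638 CPM in the Tet libraries, without overlap. The 8 mesenchymal markers summed to 323.8 to 543.8 CPM in the EtOH and 309.5 to 465.8 CPM in the Tet libraries, with *COL1A2* at 0 in every library. Of the 7 tested, 0 were called by edgeR. At an unadjusted p under 0.05, *SNAI2* was higher (log2 fold change 1.84, edgeR adjusted p = 0.389) and *PRRX1* lower (-1.02, adjusted p = 0.317), as were 5.83% and 4.94% of all genes. For 2 of the 7, *PRRX1* among them, all Tet libraries were below all EtOH libraries, as in 8.29% of all tested genes. The 8 blood, vessel and epithelial markers summed to 1.32 to 2.59 and 2.74 to 3.19 CPM, with *CD3E* and *VWF* at 0. The part of these markers in the results was not tested.

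Across all genes, 53 of 22443 tested were called at an adjusted p under 0.05, which is 0.236%, with 0.147% higher and 0.0891% lower in the libraries labelled Tet. Without EtOH replicate 2 the calls numbered 692, and without any 1 of the other 5 libraries they numbered 0 to 2. Of the 10 genes, 8 had enough counts to be tested, and 0 of these 8 were called by edgeR. At an unadjusted p under 0.05, where 10.8% of all genes stood, 1 of the 8 was found, *IGF2BP2*, lower in the Tet libraries as were 4.94% of all genes. DESeq2 also called 1 of the 8, again *IGF2BP2*, beside 499 of the 40463 genes with an unadjusted p by DESeq2, or 1.23%. DESeq2 gave no adjusted p to some of these, such as the low-count gene *IGF2*, so the share among genes it could call was higher. The log2 fold change was above zero for 2 of the 8 and below zero for 6, with a median of -0.18, beside a median of -0.01 over all genes tested. In 17.5% of all tested genes the 3 values of one group lay apart from the 3 of the other, with the Tet libraries above in 9.2% and below in 8.29%. Among the 8, this held for *IGF2BP2* alone, with the Tet libraries below.

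**Figure D1:**
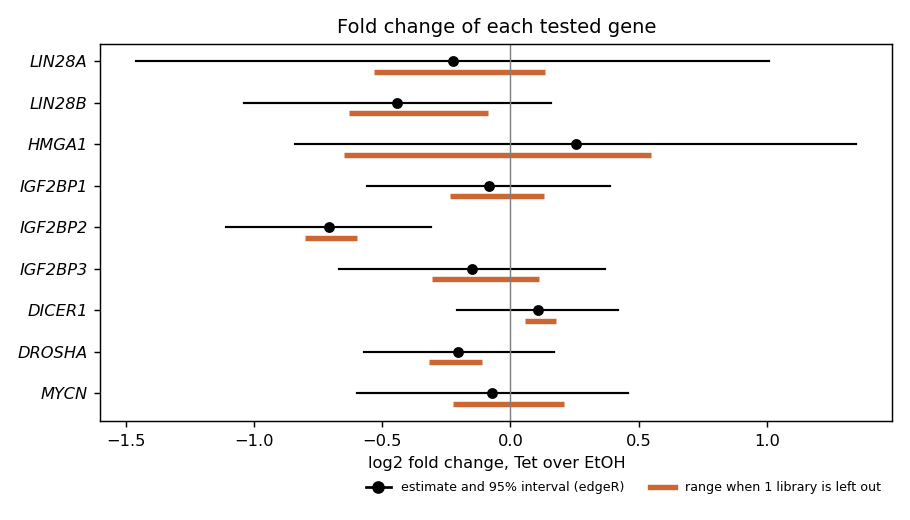
Log2 fold change of Tet over EtOH (horizontal axis) for the 8 tested genes and *MYCN*, with the edgeR estimate as a point, its 95% interval as a thin line, and the range of estimates with 1 library left out at a time as a thick line. The interval of *IGF2BP2* ends at -0.31, below zero, and the intervals of the others include zero.

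Of the 10 genes, 7 had mean levels of 8.66 to 103 TPM and 3 had mean levels under 1 TPM. Levels were compared between genes as TPM, which divides counts by exon length before bringing each library to one total. By mean TPM over the 6 libraries the order was *IGF2BP1* (103), *LIN28B* (88.0), *DICER1* (87.3), *IGF2BP3* (67.3), *DROSHA* (35.0), *IGF2BP2* (17.5), *HMGA1* (8.66), *LIN28A* (0.287), *MIRLET7BHG* (0.145) and *HMGA2* (0.036). *IGF2BP1* ranked 933rd by TPM among 40467 genes with any count and *LIN28B* ranked 1161st, while *HMGA2* ranked 35958th. *IGF2BP1* was above *LIN28B* in 5 of 6 libraries, and *LIN28B* was above *DICER1* in 1 of 6, so that the place of *LIN28B* ahead of *DICER1* rested on EtOH replicate 2. *IGF2BP3* was above *DROSHA*, *DROSHA* above *IGF2BP2* and *HMGA1* above *LIN28A* in 6 of 6 libraries, as was *MIRLET7BHG* above *HMGA2*. *DICER1* was above *IGF2BP3*, *IGF2BP2* above *HMGA1* and *LIN28A* above *MIRLET7BHG* in 5 of 6.

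**Figure D2:**
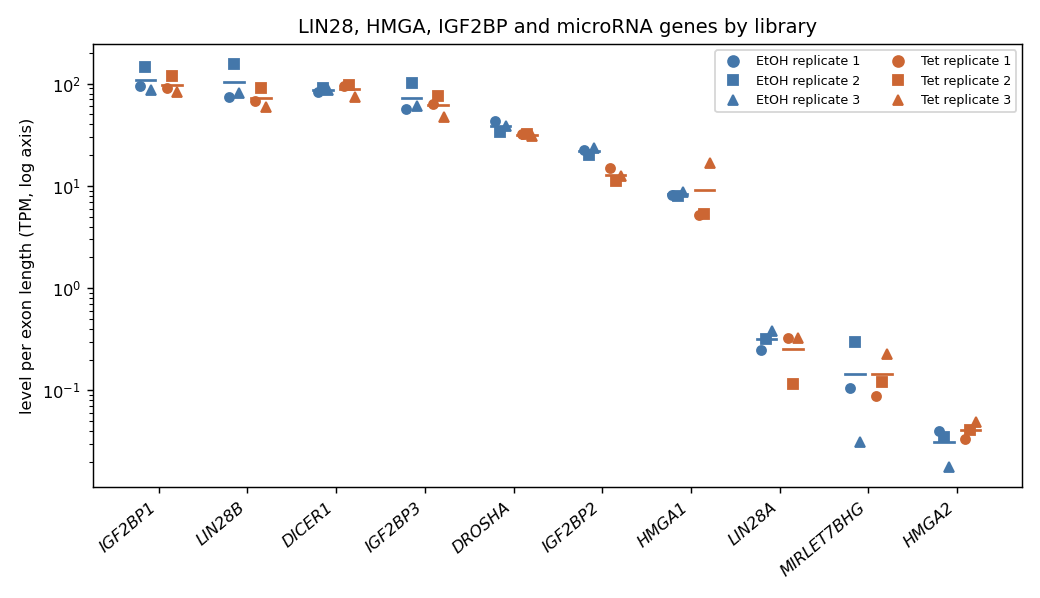
TPM of the 10 genes on a log axis, with 1 symbol per library (circle, square and triangle for replicates 1, 2 and 3) and a bar at each group mean. *IGF2BP1*, *LIN28B*, *DICER1* and *IGF2BP3* lead with means of 67.3 to 103 TPM, and *LIN28A*, *MIRLET7BHG* and *HMGA2* lie under 1 TPM.

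*LIN28B* (ENSG00000187772.8, chr6:104936616-105083332, plus strand), the LIN28 paralog found in many tumours, was at 164.2, 311.6 and 178.1 CPM in the EtOH libraries and 143.7, 195.5 and 142.3 CPM in the Tet libraries. EtOH replicate 2 stood far above the other 5 libraries, Tet replicate 2 was the highest of its group, and the groups overlapped. The means were 217.9 ± 81.4 and 160.5 ± 30.3 CPM (SD, n = 3 each), a log2 fold change of -0.44 ± 0.26 (SE), which did not pass the edgeR test (adjusted p = 0.615, 95% interval -1.04 to 0.16). Without EtOH replicate 2 the log2 fold change was -0.09. In bulk RNA, fewer cells that express a gene and less of its RNA per cell cannot be told apart. Of the exon bases of *LIN28B*, 3.05% lie within the antisense gene *LIN28B-AS1*, and reads from the antisense transcript cannot be separated there because the counting did not use strand.

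*LIN28A* (ENSG00000131914.11, chr1:26410817-26429728, plus strand), the paralog of embryonic stem cells, had 13, 12 and 17 counts in the EtOH libraries and 13, 6 and 21 in the Tet libraries. These are 0.362, 0.432 and 0.561 CPM against 0.460, 0.169 and 0.528 CPM, with Tet replicate 2 the lowest and the groups overlapping. By log2 fold change the groups differed by -0.22 ± 0.54 (SE, edgeR adjusted p = 0.939), and its 95% interval ran from -1.46 to 1.01, so that differences within it were not detectable at this depth. Without Tet replicate 2 the estimate was 0.14. By mean TPM, *LIN28B* stood at 88.0 and *LIN28A* at 0.287.

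The IGF2BP proteins bind messenger RNAs and affect their stability, location and translation. *IGF2BP1* (ENSG00000159217.10, chr17:48997385-49056145, plus strand) was at 335.9, 472.1 and 306.9 CPM in the EtOH libraries and 306.5, 421.0 and 324.0 CPM in the Tet libraries. Both libraries numbered 2 were above the other 4, and the groups overlapped. On the log2 scale Tet against EtOH gave -0.08 ± 0.21 (SE, edgeR adjusted p = 0.941, 95% interval -0.56 to 0.39), and it was 0.13 without EtOH replicate 2.

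*IGF2BP3* (ENSG00000136231.14, chr7:23310209-23470491, minus strand) was at 179.1, 289.9 and 188.6 CPM in the EtOH and 189.6, 239.5 and 164.3 CPM in the Tet libraries. As for *IGF2BP1*, the libraries numbered 2 were the highest of each group and the groups overlapped. Its log2 ratio was -0.15 ± 0.23 (SE, edgeR adjusted p = 0.888), and it was 0.11 without EtOH replicate 2. Of the *IGF2BP3* exon bases, 17.8% lie within *MALSU1*, and read pairs there were divided between both genes.

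*IGF2BP2* (ENSG00000073792.16, chr3:185643130-185825042, minus strand), the IGF2BP gene most widely expressed in adult tissues, had 43.93, 36.24 and 46.42 CPM in the EtOH libraries and 28.25, 21.89 and 27.36 CPM in the Tet libraries. All 3 Tet libraries were below all 3 EtOH libraries, and the libraries numbered 2 were here the lowest of each group. The means were 42.2 ± 5.30 and 25.8 ± 3.44 CPM (SD, n = 3 each), a ratio of 0.612 and a log2 fold change of -0.71 ± 0.18 (SE, 95% interval -1.11 to -0.31). It did not pass the edgeR test across all genes (unadjusted p = 0.0034, adjusted p = 0.181). The adjusted p was 0.0481 by DESeq2 and 0.0323 by edgeR without EtOH replicate 2, and over all alternatives tried it ran from 0.0228 to 0.631. The log2 fold change stayed between -0.80 and -0.60 whichever library was left out. None of the *IGF2BP2* exon bases lie within another gene (0%).

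As shares of the summed IGF2BP TPM, which do not depend on how libraries are scaled, *IGF2BP1* made up 54.4, 54.6 and 50.8% in the EtOH libraries and 53.6, 57.6 and 58.0% in the Tet libraries. The groups overlapped, with means of 53.3 ± 2.11% and 56.4 ± 2.41% (SD, n = 3 each, exact two-sided permutation test, p = 0.3, smallest p possible 0.1). *IGF2BP2* made up 12.9, 7.58 and 13.9% against 8.93, 5.41 and 8.85%, so that the share in EtOH replicate 2 lay below those of 2 Tet libraries (exact permutation test, p = 0.3). *IGF2BP3* made up 32.7, 37.8 and 35.3% against 37.4, 37.0 and 33.2% (exact permutation test, p = 0.8). The share of *IGF2BP2* thus overlapped between the groups although its CPM did not.

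**Figure D3:**
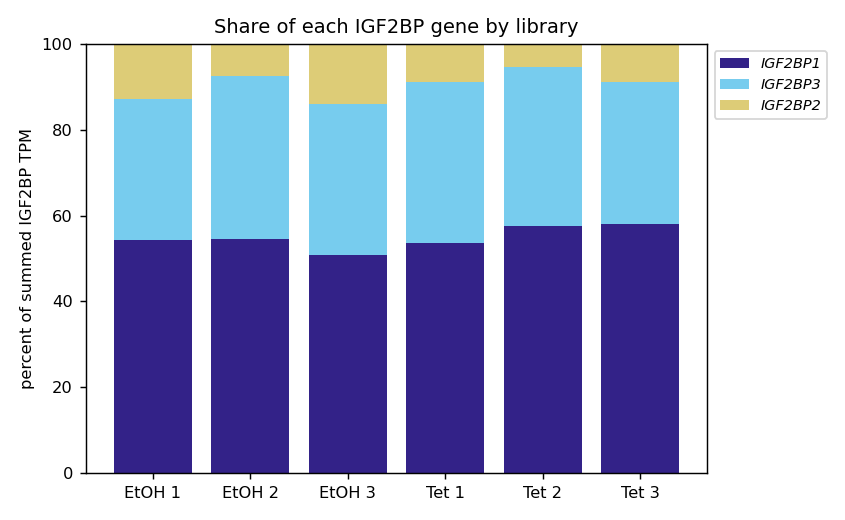
Percent of the summed TPM of the 3 IGF2BP genes in each library, stacked from *IGF2BP1* at the bottom to *IGF2BP2* at the top. *IGF2BP1* makes up 50.8 to 58.0% in every library, and *IGF2BP2* is smallest in the libraries numbered 2, with 7.58 and 5.41%.

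The HMGA genes encode small proteins that bind AT-rich DNA and alter chromatin. *HMGA1* (ENSG00000137309.20, chr6:34236873-34246231, plus strand) was at 7.08, 6.30 and 7.36 CPM in the EtOH libraries and 4.28, 4.51 and 15.88 CPM in the Tet libraries. Tet replicates 1 and 2 were the lowest of the 6 libraries and Tet replicate 3 the highest, 3.52 times the next of its group. With all 6 libraries the log2 fold change came to 0.25 ± 0.48 (SE, edgeR adjusted p = 0.915), and without Tet replicate 3 it was -0.65 (adjusted p = 0.490).

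Tet replicate 3 stood that far above both other Tet libraries for 13 of 10080 genes with a mean of at least 5 CPM (0.129%), of which 11 had distinct values. EtOH replicate 2 stood as far above both other EtOH libraries for 20 genes (0.198%), and each of the other 4 libraries for 0 or 1. Besides *HMGA1*, and named after their values were seen, the 13 included the short noncoding RNA genes *RN7SL1*, *RN7SL2*, *RN7SK* and *RMRP* and the histone genes *H1-4*, *H2BC21* and *H4C5*. *RN7SL1*, the RNA of the signal recognition particle, was at 341.9 CPM in Tet replicate 3 and at 66.65 to 88.95 CPM in the other 5 libraries. *H1-4*, a linker histone gene, was at 35.7 CPM there and at 6.66 to 10.7 CPM elsewhere. The part of this library composition in the *HMGA1* value was not tested. The annotation also names 8 pseudogenes of *HMGA1*, and reads that align equally well to such copies were not counted.

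*HMGA2* (ENSG00000149948.14, chr12:65824460-65966291, plus strand), a classical let-7 target with the 4 seed matches given above, had 8, 5 and 3 counts in the EtOH libraries and 5, 8 and 12 in the Tet libraries, too few to be tested. The means were 0.167 ± 0.0629 and 0.235 ± 0.0628 CPM (SD, n = 3 each), and the groups overlapped. *HMGA2* made up 0.484, 0.439 and 0.207% of the summed *HMGA1* and *HMGA2* TPM in the EtOH libraries and 0.634, 0.766 and 0.292% in the Tet libraries (exact two-sided permutation test, p = 0.3). These shares rest on 3 to 12 counts of *HMGA2* a library, and nearly all of the sum is *HMGA1*. In Tet replicate 3 the share was the lowest of its group although *HMGA2* was at its highest there (0.3015 CPM), as was *HMGA1*.

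Neither enzyme of microRNA processing passed the test. *DROSHA* (ENSG00000113360.17, chr5:31400494-31532196, minus strand) was at 122.8, 88.37 and 109.9 CPM in the EtOH libraries and 88.75, 91.93 and 98.06 CPM in the Tet libraries, where the lowest value of all was EtOH replicate 2. The estimated log2 fold change of *DROSHA* was -0.20 ± 0.16 (SE), with an adjusted p of 0.733 by edgeR and a 95% interval of -0.57 to 0.17. It was -0.32 without EtOH replicate 2 (adjusted p = 0.205 by edgeR) and -0.11 without EtOH replicate 1. *DICER1* (ENSG00000100697.15, chr14:95086228-95158010, minus strand) was at 387.3, 384.2 and 398.7 CPM in the EtOH libraries and 429.4, 450.3 and 381.6 CPM in the Tet libraries.

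Tet replicates 1 and 2 were the highest for *DICER1* and Tet replicate 3 the lowest. A log2 fold change of 0.11 ± 0.14 (SE) was estimated, with a 95% interval of -0.21 to 0.42 and an adjusted p of 0.857 by edgeR. Of the 8 tested genes *DICER1* had the smallest standard error, and its EtOH libraries spread by 7.62 CPM (SD, n = 3) around a mean of 390.1 CPM.

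*MIRLET7BHG* (ENSG00000197182.14, chr22:46053869-46113928, plus strand), the transcript that carries the let-7a-3 and let-7b precursors, had 8.33, 16 and 2.33 estimated counts in the EtOH libraries and 5, 9 and 21 in the Tet libraries. EtOH replicate 3 was the lowest and Tet replicate 3 the highest by count. By CPM the highest was EtOH replicate 2 (0.576), above Tet replicate 3 (0.528). The groups overlapped, and the counts were too few to be tested. The means were 0.288 ± 0.261 and 0.319 ± 0.184 CPM (SD, n = 3 each).

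Mature let-7 was not measured, since these total RNA libraries were not made from small RNA. Of the 12 let-7 precursor genes, *MIRLET7A2*, *MIRLET7A3*, *MIRLET7B*, *MIRLET7C*, *MIRLET7E* and *MIRLET7F2* were at 0 in every library, and 2 had enough counts to be tested, of which 0 were called by edgeR or DESeq2 and 0 stood at an unadjusted p under 0.05. *MIR98*, whose mature sequence is shown above, was at 2.01, 2.81 and 2.25 CPM in the EtOH and 2.34, 2.62 and 3.82 CPM in the Tet libraries (log2 fold change 0.32 ± 0.31 SE by edgeR, adjusted p = 0.795). *MIRLET7F1*, which lies wholly within exons of its host gene *MIRLET7A1HG*, was at 0.724, 1.01 and 0.924 against 1.06, 1.07 and 0.854 CPM (log2 fold change 0.17 ± 0.36 SE by edgeR, adjusted p = 0.927). The groups overlapped for both precursor genes.

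Of the 8 let-7 host genes, 7 were tested, 0 were called by edgeR and 1 by DESeq2, with 1 higher at an unadjusted p under 0.05, as were 5.83% of all genes, and a median log2 fold change of -0.04. Both were *MIR100HG*, the host of let-7a-2, miR-100 and miR-125b-1, with 0.557, 0.937 and 0.891 CPM in the EtOH and 2.34, 2.87 and 2.21 CPM in the Tet libraries. The Tet libraries were all above the EtOH libraries, by 3.12-fold at low counts (log2 fold change 1.64 ± 0.34 SE by edgeR, adjusted p = 0.118). The adjusted p was 0.00591 by DESeq2 and 0.0405 by edgeR without EtOH replicate 2, and ran from 0.00591 to 0.471 over the alternatives. *MIR99AHG*, the host of let-7c, and *MIRLET7IHG*, the host of let-7i, had log2 fold changes of -0.47 and 0.20 (edgeR adjusted p = 0.822 and 0.849). Without EtOH replicate 2 these were -0.16 and 0.51, and with each library left out in turn they ran from -0.68 to -0.16 and from 0.03 to 0.51.

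**Figure D4:**
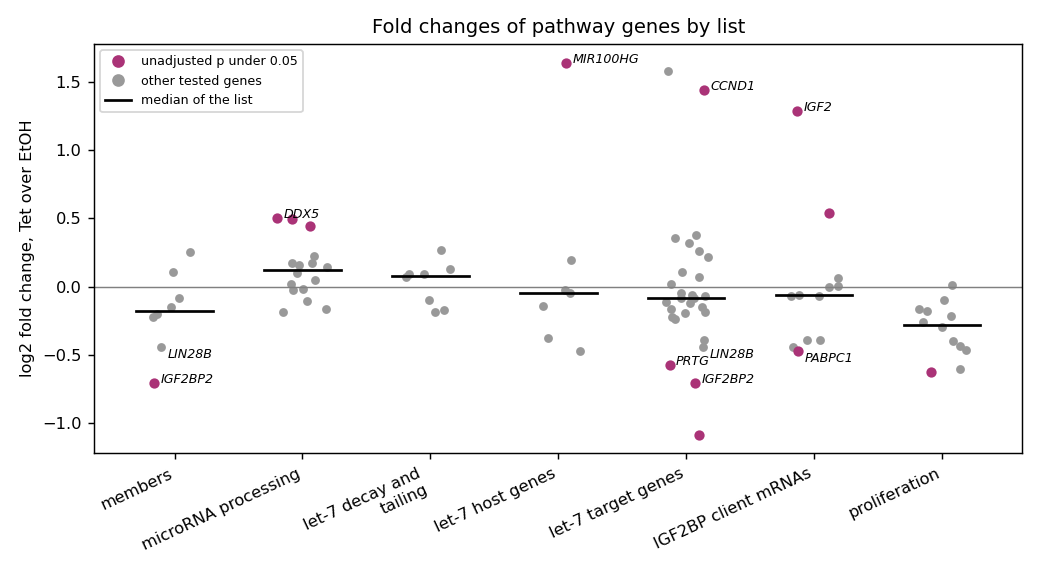
Log2 fold change of Tet over EtOH (vertical axis) of each tested gene in 7 lists, with genes at an unadjusted p under 0.05 in purple and the median of each list as a bar. The list called members holds the 8 tested genes of the main set, with a median of -0.18, and the medians of the other lists lie between -0.28 and 0.12.

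Of 16 further microRNA processing genes, all were tested, 0 were called by edgeR or DESeq2, 3 stood at an unadjusted p under 0.05, each higher in the Tet libraries, where 5.83% of all genes stood, and the median log2 fold change was 0.12. They were the DROSHA partner helicase *DDX5* and the silencing scaffolds *TNRC6C* and *TNRC6A*. *DDX5* was at 1180, 1076 and 1172 CPM in the EtOH and 1658, 1441 and 1767 CPM in the Tet libraries, without overlap (log2 fold change 0.51 ± 0.15 SE by edgeR, adjusted p = 0.253). *TNRC6C* and *TNRC6A* had log2 fold changes of 0.49 and 0.45 (edgeR adjusted p = 0.354 and 0.375).

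Of 8 genes of let-7 tailing and decay, 8 were tested and 0 were called by edgeR or DESeq2, with 0 at an unadjusted p under 0.05 and a median log2 fold change of 0.08. The uridyltransferases *TUT4* and *TUT7*, which act with LIN28A on let-7 precursors, had log2 fold changes of 0.13 and -0.18. *DIS3L2*, the nuclease that degrades uridylated precursors, had one of -0.17 (edgeR adjusted p = 0.823, 0.796 and 0.852).

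Of 33 let-7 target genes, which include 7 of the 10 main genes, 28 were tested, 0 were called by edgeR, and 2, *IGF2BP2* and *CCND1*, by DESeq2. The median log2 fold change was -0.08, with 10 genes above zero and 18 below, and 1 higher and 3 lower genes stood at an unadjusted p under 0.05, where 5.83% and 4.94% of all tested genes stood. The higher gene was *CCND1*, which encodes cyclin D1 of the G1 phase, at 151.1, 294.9 and 158.3 CPM in the EtOH and 531.9, 687.7 and 420.3 CPM in the Tet libraries. The groups did not overlap, at 2.71-fold (log2 fold change 1.44 ± 0.30 SE by edgeR, adjusted p = 0.110). The adjusted p was 0.00229 by DESeq2 and 0.00654 by edgeR without EtOH replicate 2, and ran from 0.000875 to 0.499 over the alternatives. The lower genes were *IGF2BP2*, *PRTG* and, named after its values were seen, *STARD13*. *PRTG*, a cell surface protein of the early nervous system, had 80.16, 99.57 and 82.99 CPM in the EtOH and 58.13, 64.07 and 54.34 CPM in the Tet libraries (log2 fold change -0.57 ± 0.15 SE by edgeR, adjusted p = 0.207). *STARD13* had a log2 fold change of -1.08 (edgeR adjusted p = 0.272).

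Genes were also grouped by seed match rather than by a list. The 534 tested genes with 1 match of 8 bases in the 3′ untranslated region had a median log2 fold change of -0.042, the 23 with 2 or more had one of -0.064, and the 11768 with none had one of -0.004. Of the 534 genes, 0 were called higher and 2 lower by edgeR, beside 23 and 17 of all 12325 genes searched. At an unadjusted p under 0.05, 28 (5.24%) were higher and 40 (7.49%) lower, beside 6.36% and 5.65% of the 12325. Among the 23 genes with 2 or more matches, 0 were called by edgeR. At an unadjusted p under 0.05, 1 of them (4.35%) was higher and 0 were lower. The regions with 1 match were longer, with a median of 3381 bases against 1412 for those with none, and the part of this length in the medians was not tested.

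Of 15 messenger RNAs described as IGF2BP clients, *LIN28B*, *HMGA2* and *MYCN* among them, 12 were tested and 0 were called by edgeR or DESeq2, with 2 higher and 1 lower at an unadjusted p under 0.05 (5.83% and 4.94% of all genes) and a median log2 fold change of -0.07. The lower gene, *PABPC1*, the cytoplasmic poly(A)-binding protein, was at 1067, 965.7 and 1196 CPM in the EtOH and 706.0, 735.3 and 889.7 CPM in the Tet libraries (log2 fold change -0.47 ± 0.16 SE by edgeR, adjusted p = 0.332). The higher genes were the drug efflux pump gene *ABCB1* (log2 fold change 0.53, edgeR adjusted p = 0.405) and *IGF2* (1.28, adjusted p = 0.425). *IGF2*, the growth factor for which the family is named, was at 0.108 to 0.223 CPM in the EtOH and 0.352 to 0.423 CPM in the Tet libraries, and 72.1% of its exon bases lie within other genes.

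*LIN28B*, *IGF2BP1* and *IGF2BP3* varied together over the libraries, whereas *IGF2BP2* did not follow them. Over the 6 libraries, which share the high values of EtOH replicate 2, the Pearson correlation of log2 CPM with *LIN28B* was 0.93 for *IGF2BP3*, 0.879 for *IGF2BP1*, 0.156 for *IGF2BP2*, -0.152 for *DICER1* and -0.326 for *DROSHA*. The correlation with the first principal component of all genes was 0.952 for *IGF2BP3*, 0.886 for *IGF2BP1* and 0.811 for *LIN28B*. The genes most like *LIN28B* of 10079 compared were *BUB1* (0.9992), *MTAP* (0.9986), *EXOSC9* (0.9985), *HAUS6* (0.9977) and *ITGB3BP* (0.9975), and 809 genes had a correlation over 0.9.

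*BUB1*, a mitotic checkpoint kinase, was at 93.87, 187.2 and 105.7 CPM in the EtOH and 82.48, 116.4 and 81.8 CPM in the Tet libraries, with the same high library as *LIN28B*. Of 12 proliferation genes, 0 were called by edgeR or DESeq2, 1 (*CCNB1*, log2 fold change -0.62, adjusted p = 0.462) was lower at an unadjusted p under 0.05 (4.94% of all genes), and 11 had a log2 fold change below zero (median -0.28). Their summed level was 1793 to 2767 CPM in the EtOH and 1572 to 2089 CPM in the Tet libraries. *MKI67*, the proliferation antigen Ki-67, was at 365.8, 231.0 and 286.2 against 198.7, 213.3 and 242.3 CPM, and its highest library was EtOH replicate 1, not EtOH replicate 2. The part of proliferation in the levels of *LIN28B* and the IGF2BP genes was not tested.

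**Figure D5:**
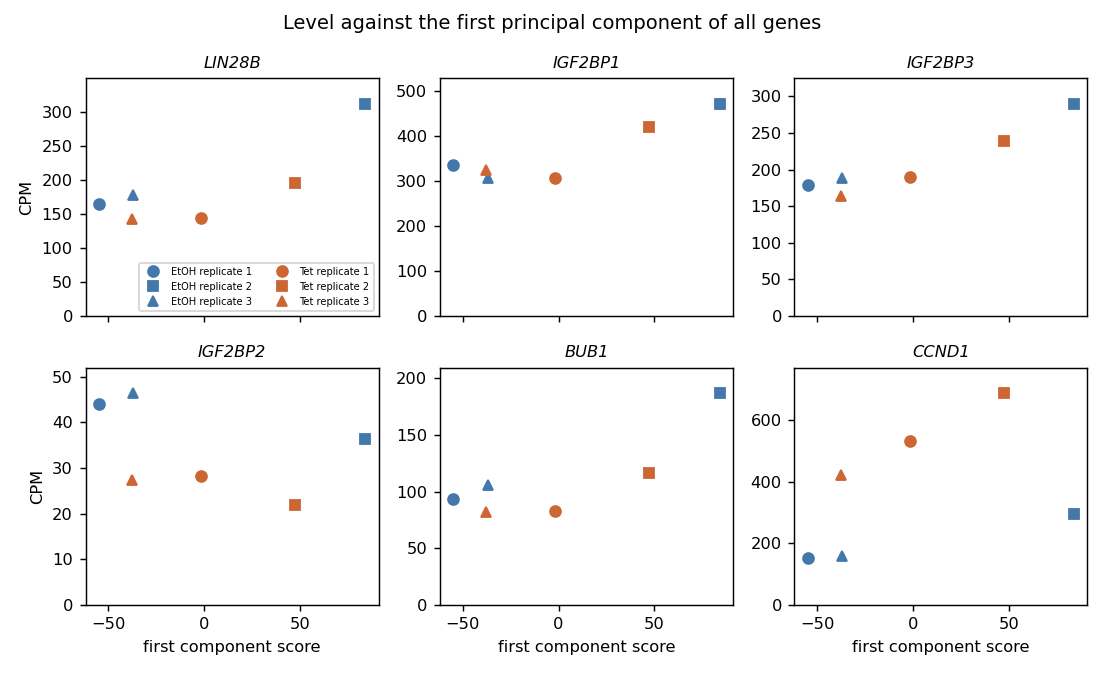
CPM (vertical axis, from 0) of *LIN28B*, the IGF2BP genes, *BUB1* and *CCND1* against the score of each library on the first principal component of all genes, with blue symbols for EtOH, orange for Tet and shapes for replicate numbers. EtOH replicate 2 at 84.2 carries the highest *LIN28B*, *IGF2BP1*, *IGF2BP3* and *BUB1*, while *IGF2BP2* and *CCND1* separate by label.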

How the data were processed

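Total RNA depleted of ribosomal RNA was sequenced in 6 libraries. Each table held estimated counts, which the authors made, per the file headers, with featureCounts 1.6.4, dividing read pairs among overlapping genes and not using strand. The submitters' processing notes list STAR 2.7.1a, featureCounts 1.5.1 and GRCh38. The 92 spike-ins had counts of 0 and were left out. Values were rounded to whole numbers, since the planned test assumed whole counts, filtered with filterByExpr and scaled by TMM. The Tet and EtOH groups were compared with edgeR 4.0.16 (R 4.3.3, quasi-likelihood test), without a block, with Benjamini-Hochberg adjustment over all genes and a threshold of 0.05. The step was tested on simulated counts. Alternatives were other scalings and filters, DESeq2 1.42.0, limma 3.58.1 (voom), a replicate block, no mitochondrial genes, and each library left out.

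Levels are TMM-normalised CPM, and TPM used exon lengths. Correlations used log2 CPM with a prior count of 2. Regions of like length were within 25% of a gene's own.

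The 10 genes and the lists (microRNA processing, let-7 tailing and decay, let-7 hosts, precursors and targets, IGF2BP clients, proliferation, and 3 lists of cell type markers) were chosen with earlier results of these data known. One marker of the noradrenergic list is not reported here. Beside the 10 genes and *MYCN*, the text names up to 3 genes a list with the lowest unadjusted p and the 5 genes most like *LIN28B*. The labels do not say whether replicates were separate cultures. The study's methods give 3 independent biological replicates for in vitro work unless noted otherwise, without naming these libraries. The p-values measure the spread between these libraries, whose source the labels do not give. No batch is labelled.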

Additional observations from a re-analysis of the deposited data

How the results depend on the processing

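Genes called higher and lower numbered 33 and 20. They numbered 185 and 117 without the filter, 290 and 209 by DESeq2, and 421 and 254 with the replicate block, and lower genes numbered 13 with RLE size factors. Leaving out 1 library gave 0 to 361 higher and 0 to 331 lower genes, the most without EtOH replicate 2. With 0 called, 1865 genes (without Tet replicate 1) and 2067 (without Tet replicate 3) stood at an unadjusted p under 0.05. Of the 10 genes, 0 were called, but 1, *IGF2BP2*, by DESeq2, with the replicate block and without EtOH replicate 2 (0 to 1 over the libraries left out). The log2 fold change turned direction for *LIN28A* without Tet replicate 2 (-0.53 to 0.14 over the libraries left out), for *IGF2BP1* and *IGF2BP3* without EtOH replicate 2 (-0.24 to 0.13 and -0.31 to 0.11), for *HMGA1* with the replicate block (-0.0213) and without Tet replicate 3 (-0.65 to 0.55), and for *MYCN* without EtOH replicate 2 and without Tet replicate 3 (-0.22 to 0.21). None of these values passed the test. Over 8 tested genes and 111 alternatives, the call and direction held in 103, a call was gained in 3 and the direction turned in 5. The cause was not tested.

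The replicate numbers were shared by both groups, but deviations of same-numbered libraries correlated at 0.0603, 0.51 and 0.219, and EtOH replicates 2 and 3 matched their own number best but EtOH replicate 1 matched Tet replicate 3. The block was therefore read only as an alternative, in which *IGF2BP2* (adjusted p 0.0228), *MIR100HG* (0.0331), *CCND1* (0.000875), *PRTG* (0.0369) and *CCNB1* (0.036) passed. With 3 libraries a group and 6 to 21 counts of *LIN28A* a library, the low genes allow no finer comparison.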
